A study of Homo sapiens with 11 samples.

Results

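FOXO1 silencing in Ewing sarcoma cells that still expressed EWS-FLI1 was measured on 4 of the 11 arrays of the series, chosen by their labels. All came from A673sh, a form of the A673 Ewing sarcoma line that carries a doxycycline-inducible short hairpin RNA (shRNA) against EWS-FLI1, and this hairpin was not induced here. The plasmid pRS-sh-FOXO1, whose hairpin is directed at endogenous FOXO1, was put into one group by transient transfection (sh-FOXO1, 2 arrays). Their controls received pRS-sh-scrambled (sh-scrambled, 2 arrays). Neither group received doxycycline. The study asked which genes held down by EWS-FLI1 depend on FOXO1. It therefore also profiled both plasmids with doxycycline for 48 h after transfection (2 arrays each), and cells transfected with FOXO1-AAA, resistant to AKT phosphorylation, with the CDK2-resistant FOXO1-S249A/S298A or with empty pCDNA3 vector (1 array each). Levels were read on Affymetrix HG-U133 Plus 2 arrays, where a gene is read by 1 or more probe sets. The labels do not name the FOXO1 hairpin used, nor the share of cells transfected, and all cells came from 1 line. Effects of that hairpin on other transcripts and loss of FOXO1 cannot be told apart in this comparison.

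EWS-FLI1 is the fusion transcription factor that drives most Ewing sarcomas. It activates one set of genes and holds another set down, and FOXO1 belongs to the second. FOXO1 is a forkhead transcription factor that binds the core sequence TGTTTAC and is kept out of the nucleus when AKT or CDK2 phosphorylate it. In many cell types it raises genes of cell-cycle arrest, oxidative stress defence, autophagy and metabolism.

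FOXO1 RNA was lower in sh-FOXO1 cells. On the probe set that stood for the gene the log2 level was 4.97 and 4.80 on the sh-FOXO1 arrays and 5.86 and 5.81 on the sh-scrambled arrays. This left 0.519 of the control level (log2 fold change −0.95 with a standard error of 0.11, adjusted p = 0.00074, limma). Another probe set had 4.41 and 4.46 on the sh-FOXO1 arrays and 5.87 and 6.02 on the sh-scrambled arrays. The groups did not overlap on either. One more was dim on all 4 arrays, at 3.75 and 3.68 in sh-FOXO1 cells and 3.66 and 3.70 in sh-scrambled cells. FOXO1 was already near the 60th percentile of each array (5.69 to 5.70) in the control cells, so its fold is read close to the dim end of the scale.

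The fusion was read through FLI1, whose 3′ part is in the fusion transcript, and no change passed the test. FLI1 had log2 levels of 8.84 and 8.56 in sh-FOXO1 cells and 8.84 and 8.71 in sh-scrambled cells (log2 fold change −0.07, standard error 0.10, adjusted p = 0.63, limma). NKX2-2, a factor that EWS-FLI1 activates, had 9.48 and 9.22 in sh-FOXO1 cells and 9.30 and 9.32 in sh-scrambled cells. CCND1, the G1 cyclin D1, had 11.49 and 11.72 in sh-FOXO1 cells and 11.35 and 11.59 in sh-scrambled cells. The groups overlapped for all 3 genes. All 11 Ewing sarcoma line markers stood at or above the 60th percentile on all 4 arrays, and none was called. FOXO3, another forkhead factor of the FOXO class, had 9.80 and 9.62 in sh-FOXO1 cells and 9.55 and 9.66 in sh-scrambled cells, and CDK2 had 6.77 and 6.54 in sh-FOXO1 cells and 7.06 and 6.72 in sh-scrambled cells. Neither passed the test.

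**Figure D1:**
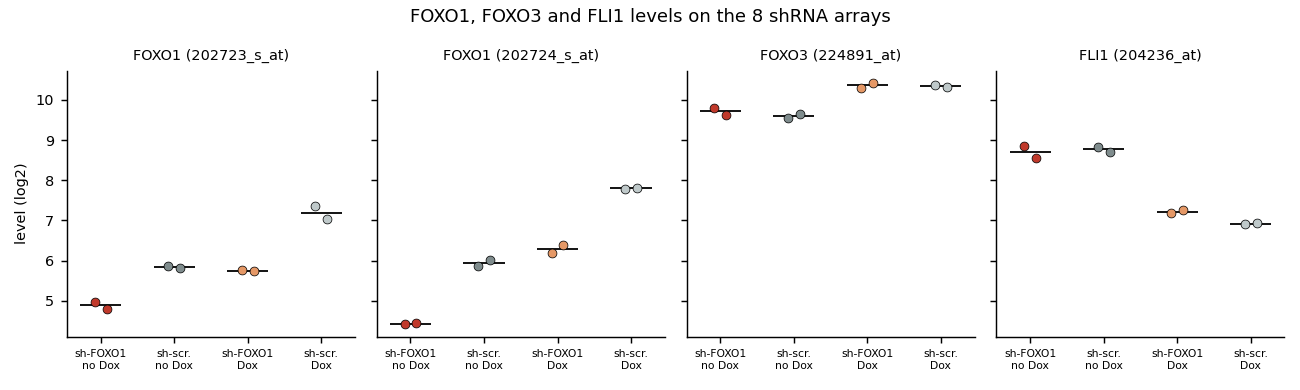
Log2 level (y axis) of FOXO1 on 2 probe sets, FOXO3 and FLI1 on the 8 shRNA arrays, in the groups named on the x axis; points are arrays and bars are means of 2. Both FOXO1 probe sets were lower in sh-FOXO1 cells than in sh-scrambled cells with and without doxycycline (Dox), and FLI1 was lower in both groups with doxycycline than in those without.

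Of 12326 genes tested, 425 were higher (3.45%) and 287 lower (2.33%) in sh-FOXO1 cells, 712 in all (5.78%). A gene was called where its adjusted p was under 0.05 (limma, Benjamini-Hochberg) and it differed by more than 0.7 on the log2 scale, a 1.62-fold change. The median log2 fold change over all genes tested was 0.01. The higher genes moved further: 202 of them were past a log2 fold change of 1 and 21 past 2, against 70 past −1 and 4 past −1.5 among the lower genes. All 712 called genes had the same sign in both same-numbered differences of arrays. The call uses these same arrays, so this agreement follows largely from it and is no separate check. Groups that do not overlap are common with 2 arrays each: both sh-FOXO1 arrays were above both sh-scrambled arrays for 31.4% of all genes and below them for 29.9%. Those furthest up included secreted signals such as GDF15, IL1A, CXCL8 and CCL2, and those furthest down included PAX6, RECK, CENPU and RRAGD. The labels do not say that replicate arrays came from separate cultures, so these p-values measure the spread between arrays, which may be technical.

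Chemokines, interleukin-1 and the NF-kB feedback genes were higher, and the chemokine list had the largest share of called genes of the 53 lists described. The lists were chosen with earlier results of these data known, so this rank is a description and no test. Over all genes tested 3.45% were called higher and 2.33% lower, shares to set beside this and each later list count. Chemokines draw white blood cells to a tissue, and NF-kB is the factor through which interleukin-1 and tumour necrosis factor raise them. Of 20 measured genes in the list of chemokines, their receptors and related ligands, 10 rose, 0 fell and 10 did not pass the test (median log2 fold change 0.74). Of 24 genes of NF-kB and its feedback, 9 rose, 0 fell and 15 did not pass (median 0.51).

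CXCL8 (interleukin-8), a neutrophil attractant, had log2 levels of 8.09 and 8.71 in sh-FOXO1 cells and 5.13 and 5.36 in sh-scrambled cells, an 8.92-fold increase (log2 fold change 3.16, standard error 0.21, adjusted p = 6.4e-05, limma). CCL2, a monocyte attractant, had 8.87 and 9.08 in sh-FOXO1 cells and 5.92 and 6.03 in sh-scrambled cells (log2 fold change 3.00). CCL20, which attracts CCR6-bearing lymphocytes, had 7.36 and 7.79 in sh-FOXO1 cells and 4.99 and 4.90 in sh-scrambled cells (2.63). In control cells all 3 lay between 4.90 and 6.03, around the median of each array (5.14 to 5.16), and in sh-FOXO1 cells all lay well above it. TNFSF15, a ligand of the tumour necrosis factor family, rose by 2.22 on the log2 scale, and the chemokine receptor CXCR4 and the chemokine CXCL14 each rose by 1.49.

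IL1A and IL1B, the interleukin-1 cytokines, both rose. IL1A had 9.13 and 9.32 in sh-FOXO1 cells and 5.75 and 6.07 in sh-scrambled cells, a 9.96-fold increase (log2 fold change 3.32, standard error 0.12, adjusted p = 4.9e-06, limma). IL1B had 8.99 and 9.03 in sh-FOXO1 cells and 6.37 and 6.56 in sh-scrambled cells (2.54). Their receptor IL1R1 rose by 1.48. Among the feedback genes TNFAIP3, the A20 protein that switches NF-kB signalling off, had 9.58 and 9.72 in sh-FOXO1 cells and 7.38 and 7.46 in sh-scrambled cells, a rise of 2.23. NFKBIZ, an atypical member of the IkB family of NF-kB regulators, rose by 1.92, and ICAM1, an adhesion molecule for white blood cells, by 1.84. NFKBIA, the classical inhibitor, and NFKB2, a subunit, did not pass, with log2 fold changes of 0.69 and 0.65 just under the limit of 0.7. RELA, the main subunit, was at 0.28.

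Promoter sequence was read for these genes from RefSeq (GRCh38.p14), which covered 9989 of the genes tested with a window of 250 bases before to 50 after the start. Of the 17 called chemokine and NF-kB genes with a window, 10 held the NF-kB letters GGNNNTTCC on either strand (58.8%), against 23.1% of all tested genes and 20.1% of all 27305 promoters. These lists were drawn up around NF-kB and genes known to respond to it, so this share is a description of the genes listed and says nothing of their change. Of 9 called immediate early factors with a window 2 held the letters (22.2%). Over all called genes the share was 28.8% of 337 higher genes and 16.7% of 234 lower genes. The AP-1 letters TGANTCA, bound by FOS and JUN factors, were in 8.01% of the higher and 2.56% of the lower genes, and in 4.64% of those tested and 7.76% of all promoters. The FOXO letters TGTTTAC were in 2.67% of the higher and 1.28% of the lower genes, beside 2.25% of those tested and 3.41% of all promoters. Shown here are the 250 bases before the start of 4 genes the results turn on, with these matches in capitals. GDF15, the furthest gene up, lies at chr19:18385908-18386157 (+ strand) and holds the forkhead letters. CXCL8, at chr4:73740319-73740568 (+ strand), holds AP-1 and then NF-kB letters. TNFAIP3, at chr6:137867009-137867258 (+ strand), holds the NF-kB letters at 2 places and ICAM1, at chr19:10270870-10271119 (+ strand), at 1. No motifs overlapped, and a match is a description of the letters only.
GDF15: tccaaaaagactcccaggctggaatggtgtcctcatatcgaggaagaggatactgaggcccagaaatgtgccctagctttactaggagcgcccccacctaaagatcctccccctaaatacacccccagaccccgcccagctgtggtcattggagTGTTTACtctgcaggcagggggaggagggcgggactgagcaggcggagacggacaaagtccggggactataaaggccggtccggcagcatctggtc
CXCL8: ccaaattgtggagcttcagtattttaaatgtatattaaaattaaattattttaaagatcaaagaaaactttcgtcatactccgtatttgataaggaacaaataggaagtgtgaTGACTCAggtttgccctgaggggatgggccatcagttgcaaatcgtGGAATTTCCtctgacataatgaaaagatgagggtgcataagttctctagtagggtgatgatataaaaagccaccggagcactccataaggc
TNFAIP3: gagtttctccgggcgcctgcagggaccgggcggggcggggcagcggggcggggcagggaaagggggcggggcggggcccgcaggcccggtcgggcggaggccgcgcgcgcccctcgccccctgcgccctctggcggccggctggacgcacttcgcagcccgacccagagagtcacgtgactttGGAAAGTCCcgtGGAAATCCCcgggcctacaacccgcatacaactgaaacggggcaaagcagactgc
ICAM1: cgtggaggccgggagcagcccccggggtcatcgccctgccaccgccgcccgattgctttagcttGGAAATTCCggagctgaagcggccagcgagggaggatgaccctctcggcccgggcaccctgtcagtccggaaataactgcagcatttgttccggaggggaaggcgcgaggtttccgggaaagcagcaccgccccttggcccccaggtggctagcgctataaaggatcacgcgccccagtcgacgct

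Immediate early factors, which are switched on within minutes of growth factor, stress or cytokine signals, were also higher. Of 26 measured, 11 rose, 0 fell and 15 did not pass, and all 26 had a log2 fold change above 0 (median 0.67), as did 51.3% of all genes tested. FOSL2, an AP-1 subunit, had 6.83 and 6.86 in sh-FOXO1 cells and 5.04 and 5.11 in sh-scrambled cells (log2 fold change 1.77). FOS had 8.32 and 7.70 in sh-FOXO1 cells and 6.89 and 6.54 in sh-scrambled cells (1.29), so its replicates were further apart than those of FOSL2. JUN rose by 1.29, the AP-1 partner MAFF by 1.38, and the zinc finger factors EGR4 and EGR3 by 1.64 and 1.21. EGR1 had 9.05 and 8.53 in sh-FOXO1 cells and 8.18 and 7.74 in sh-scrambled cells (0.83, adjusted p = 0.056, limma) and did not pass, although its groups did not overlap. Its call depended on the fit: it passed on the 4 arrays alone (adjusted p = 0.038, limma), with a mean-variance trend (adjusted p = 0.044, limma) and on its brightest probe set (0.87, adjusted p = 0.0065, limma). The list had 8 called genes without sh-FOXO1 replicate 1 and 14 without sh-FOXO1 replicate 2.

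Feedback genes of the MAP kinase pathway, through which growth factors raise these factors, were measured as a list of 22. Of these 3 rose (13.6%, beside 3.45% of all genes) and 0 fell (median 0.41). IER3, which modulates ERK signalling and cell survival, had 11.01 and 11.03 in sh-FOXO1 cells and 9.81 and 9.79 in sh-scrambled cells (log2 fold change 1.22). IER3 was also counted above among the called chemokine and NF-kB genes. SPRY2 and SPRY4, inhibitors of receptor tyrosine kinase signalling, rose by 1.16 and 0.91. The phosphatase DUSP6 did not pass, at 0.69. In the list of interleukin-6, oncostatin M receptor and STAT3 signalling, 3 of 20 genes rose (15%) and 0 fell. The receptor IL6R rose by 1.05, the cytokine LIF by 0.90 and the feedback gene SOCS1 by 0.89, while IL6 itself was dim, with 4.94 and 4.94 in sh-FOXO1 cells and 4.58 and 4.51 in sh-scrambled cells, and did not pass (0.39). OSMR, which the study follows, had 5.18 and 5.01 in sh-FOXO1 cells and 4.68 and 4.92 in sh-scrambled cells (0.30) and did not pass. SOCS1 was called on 1 probe set only, and its brightest probe set gave a log2 fold change of 0.03.

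**Figure D2:**
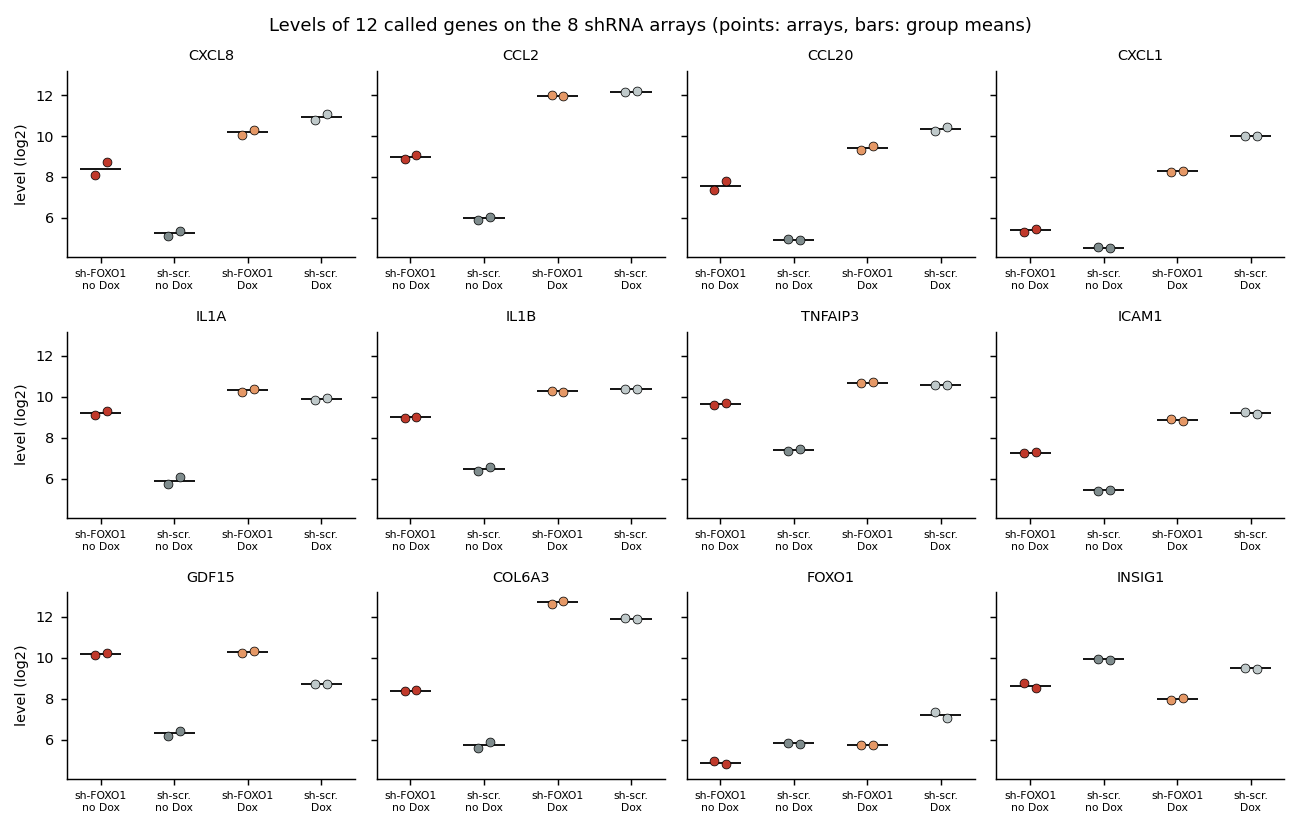
Log2 levels (y axis) of 12 called genes in the 4 shRNA groups (x axis), with a point for each array and a bar at the mean of 2. In sh-FOXO1 cells without doxycycline CXCL8, CCL2 and IL1B lay above the sh-scrambled cells without doxycycline and below both groups with doxycycline, while GDF15 had about the same level in both sh-FOXO1 groups.

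GDF15, a stress-induced hormone of the TGF-beta family that curbs appetite, moved furthest of all genes. Its log2 level was 10.12 and 10.23 in sh-FOXO1 cells and 6.20 and 6.45 in sh-scrambled cells, a 14.4-fold increase (log2 fold change 3.85, standard error 0.09, adjusted p = 2.2e-06, limma). It is also a p53 target, and 2 further genes of the 25 measured p53 targets rose: the kinase PLK2 by 1.17 and GADD45A, which takes part in growth arrest and DNA repair, by 0.74 (0.67 and not called without sh-FOXO1 replicate 2). In the same list TP53INP1 and the repair gene DDB2 fell, each by 0.86, and CDKN1A, the p53-induced cell-cycle inhibitor p21, did not pass (0.42). The median of the list was 0.01, and 12% of it rose and 8% fell, beside 3.45% and 2.33% of all genes.

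The unfolded protein response and its ATF4 arm slow translation and raise chaperones when proteins misfold in the endoplasmic reticulum. Of 32 of their genes 5 rose (15.6%, beside 3.45% of all genes) and 0 fell (median 0.35). They were the stress sensor ERN1 (log2 fold change 1.01), the pseudokinase TRIB3 (0.82), the factor DDIT3 (0.74), and the chaperone partners SDF2L1 (0.74) and DNAJB9 (0.72). None kept its call throughout. ERN1 was at 0.43 as the mean of its kept probe sets, TRIB3 at 0.60 without sh-FOXO1 replicate 1, DDIT3 and SDF2L1 at 0.65 and 0.67 without sh-FOXO1 replicate 2, and DNAJB9 at 0.69 without sh-scrambled replicate 1. The chaperone HSPA5 had 12.56 and 12.53 in sh-FOXO1 cells and 12.16 and 12.23 in sh-scrambled cells and did not pass (0.35), and ASNS, an ATF4 target, was at 0.07. None of 19 heat shock genes was called. Of 33 interferon response genes IFITM1 rose by 0.73 (0.61, under the limit, without sh-FOXO1 replicate 1) and none fell. This 3.03% of the list lay near the 3.45% of all genes called higher. IFIT1, an interferon-induced RNA sensor, had 5.47 and 5.55 in sh-FOXO1 cells and 6.21 and 6.09 in sh-scrambled cells (−0.64), and did not pass the limit. None of 15 genes of the RNA interference machinery was called.

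More matrix genes rose than fell. Of 32 matrix glycoprotein and crosslinking genes 4 rose and 0 fell, and of 29 matrix proteases and inhibitors 6 rose and 1 fell. MMP10, a matrix protease (stromelysin-2), had 7.97 and 8.25 in sh-FOXO1 cells and 5.05 and 5.15 in sh-scrambled cells, an 8.03-fold increase (log2 fold change 3.01, standard error 0.10, adjusted p = 4.9e-06, limma), and MMP3 rose by 1.60. COL6A3, a collagen VI chain, had 8.36 and 8.43 in sh-FOXO1 cells and 5.60 and 5.88 in sh-scrambled cells (2.66). Of 24 measured collagen chains 7 rose and 2 fell (median 0.27): COL25A1 rose by 1.42, COL1A2 by 1.51, COL11A1 by 1.28, COL1A1 by 1.20, COL5A3 by 0.96 and COL7A1 by 0.81, and COL5A2 and COL12A1 fell by 0.76 and 0.77 (COL7A1, COL5A2 and COL12A1 are named to complete the count, after their values were seen). On their brightest probe sets COL1A1 and COL25A1 were at 0.47 and 0.59 and not called. The mean of all kept probe sets called 6 collagen chains higher and 0 lower. The matrix glycoproteins TNC, FBLN5 and TGFBI rose by 1.71, 1.59 and 1.57. Fibronectin (FN1) was called on a probe set that rose by 1.52, but 4 brighter FN1 probe sets differed by 0.24 to 0.28. The protease inhibitor TIMP3 rose by 1.10 and the plasminogen activator PLAU by 1.17. Against these, RECK, a membrane-bound inhibitor of matrix proteases, fell on the probe set used, with 5.89 and 6.12 in sh-FOXO1 cells and 7.62 and 7.99 in sh-scrambled cells (−1.80). Of its 3 other kept probe sets, 2 differed by −0.69 and −0.76 and the brightest by 0.00.

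Genes known to be held down by EWS-FLI1 were counted from a list of 35, which holds EPAS1, MME and OSMR because the study follows them and shares CCL2, TNFAIP3 and PTGS2 with the lists above. Of these 10 rose, and FOXO1, whose hairpin was the treatment, was the only 1 that fell (median 0.50). The 10 included IGFBP5, a binding protein of insulin-like growth factors, with 7.58 and 7.50 in sh-FOXO1 cells and 5.41 and 5.74 in sh-scrambled cells (log2 fold change 1.97), and the TGF-beta receptor TGFBR2 (0.83). IGFBP5 was called on the probe set used, while the mean of its kept probe sets differed by 0.67 and was not called. IGFBP3 (0.50), LOX (0.19), EPAS1 and MME did not pass. EPAS1, a hypoxia factor, had 5.52 and 5.53 in sh-FOXO1 cells and 5.41 and 5.41 in sh-scrambled cells, and MME, a peptidase, had 4.03 and 4.03 in sh-FOXO1 cells and 4.04 and 4.28 in sh-scrambled cells. Without sh-scrambled replicate 2 there were 13 called higher in this list, and with the mean of all kept probe sets 6. Of 34 genes that EWS-FLI1 activates, 3 rose and 0 fell (median 0.14): TNC, UPP1, an enzyme of uridine breakdown (1.35), and the lipase LIPI (0.83).

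Peptide hormones, some neural genes and 1 endothelial marker were higher. Of 21 measured neuropeptides and peptide hormones 6 rose, 0 fell and 15 did not pass (median 0.55). TAC1, the precursor of substance P, had 4.76 and 5.16 in sh-FOXO1 cells and 3.33 and 3.37 in sh-scrambled cells (log2 fold change 1.61). TAC1 was dim: each of these values lay under the 60th percentile of its array (5.69 to 5.70). It was kept by the filter only through other arrays of the series. ADM, the vasodilator adrenomedullin, had 8.03 and 7.91 in sh-FOXO1 cells and 6.59 and 6.49 in sh-scrambled cells (1.43), and neurotensin (NTS) rose by 1.42. Of 20 neural genes 4 rose and 1 fell. GAP43, a growth cone protein, had 8.78 and 8.82 in sh-FOXO1 cells and 7.03 and 7.10 in sh-scrambled cells (1.73). KDR, the main receptor of vascular endothelial growth factor, had 6.21 and 6.25 in sh-FOXO1 cells and 4.14 and 4.13 in sh-scrambled cells (2.10). KDR was the only endothelial marker called of 5 tested. Over all 10 endothelial markers the summed log2 level was 53.8 to 54.1 on the sh-FOXO1 arrays and 51.1 to 51.7 on the sh-scrambled arrays. KDR, which rose by 2.10, is in this sum, so the sum does not show a shift of the other markers. TEK reached the 60th percentile on both sh-scrambled arrays but, in sh-FOXO1 cells, only on replicate 1. Of the epithelial and blood cell markers, 5 and 2 were bright enough to test and none was called.

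Other genes far up had unrelated roles. TDO2, which opens tryptophan breakdown, had 9.51 and 9.78 in sh-FOXO1 cells and 6.91 and 7.18 in sh-scrambled cells (log2 fold change 2.60). PDE4B, a phosphodiesterase that degrades cyclic AMP, had 8.68 and 8.75 in sh-FOXO1 cells and 6.19 and 6.13 in sh-scrambled cells (2.56). SCGB3A2, a secreted protein known from airways, had 6.56 and 6.82 in sh-FOXO1 cells and 4.43 and 4.23 in sh-scrambled cells (2.36). SSH2, a phosphatase of the actin regulator cofilin, and NFRKB, a chromatin remodelling subunit, were called at 2.25 and 2.28 on single probe sets. The other kept NFRKB probe sets differed by −0.08, −0.04 and 0.35 and the other kept SSH2 probe set by 0.46. The histone genes H2AC6 and H2BC5 rose by 1.54 and 1.53, 2 of 3 called among 17 histone genes.

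Among the lower genes PAX6, a transcription factor of eye and brain development, moved furthest. It had 5.32 and 5.49 in sh-FOXO1 cells and 7.25 and 7.31 in sh-scrambled cells, which left 0.273 of the control level (log2 fold change −1.87, standard error 0.08, adjusted p = 1.2e-05, limma). Its second probe set differed by −0.96. NR2F1, a nuclear receptor of neural development, had 5.64 and 5.68 in sh-FOXO1 cells and 7.08 and 7.19 in sh-scrambled cells (−1.48). RRAGD, a GTPase that couples amino acids to mTOR, had 5.19 and 4.80 in sh-FOXO1 cells and 6.33 and 6.66 in sh-scrambled cells. ATL1, which shapes the endoplasmic reticulum, fell by 1.31, as did RFK, which makes flavin cofactors from riboflavin, and DDHD1, a phospholipase, fell by 1.35. The mean of the kept RFK probe sets was at −0.66 and not called.

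Most genes of mitosis and DNA replication had a fold change below 0, and few were past the limit. Of 61 measured genes of mitosis 5 fell, 0 rose and 56 did not pass (median −0.40), and 60 of the 61 had a log2 fold change below 0, as did 48.7% of all genes tested. Of 50 genes of DNA replication 3 fell and 0 rose, and all 50 were below 0 (median −0.39). The list of 31 G1 cyclins, kinases and CDK inhibitors, which holds CCNE2, was more mixed. In it 1 rose and 2 fell, and 11 were above 0 and 20 below (median −0.19). CCNE2, a cyclin of S phase entry, had 5.97 and 6.25 in sh-FOXO1 cells and 7.31 and 7.71 in sh-scrambled cells (log2 fold change −1.40, standard error 0.17, adjusted p = 0.00097, limma). CENPU, a kinetochore protein, had 4.80 and 5.20 in sh-FOXO1 cells and 6.44 and 6.74 in sh-scrambled cells (−1.60), and its brightest probe set differed by −0.48. E2F8, a repressor of E2F target genes, fell by 1.05. TOP2A, which untangles DNA before mitosis, had 10.35 and 10.51 in sh-FOXO1 cells and 11.13 and 11.24 in sh-scrambled cells (−0.75). RRM2, which supplies deoxynucleotides, fell by 0.74 and the single-strand binding protein RPA1 by 0.90. Without sh-FOXO1 replicate 1 TOP2A was at −0.67, and without sh-FOXO1 replicate 2 RRM2 was at −0.64, and neither was called. The replication clamp PCNA (−0.48) and the mitotic cyclin CCNB1 (−0.35) did not pass. There were 2 mitosis genes called lower without sh-scrambled replicate 2 and 8 without sh-scrambled replicate 1, and also 2 with the brightest probe set per gene.

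DNA repair genes were called lower in 3 of 46 cases (6.52%) and higher in 0, beside 2.33% of all genes called lower. With the brightest probe set per gene, and with the mean of all kept probe sets, 1 was called lower. The 3 were BRIP1, BARD1 and LIG3, and LIG3 was at −0.46 and not called on its brightest probe set. BRIP1, a helicase that partners BRCA1, had 4.68 and 4.72 in sh-FOXO1 cells and 5.94 and 6.21 in sh-scrambled cells (log2 fold change −1.37), and BARD1, another BRCA1 partner, fell by 0.72 (−0.59 and not called on its brightest probe set). Of the genes of cholesterol synthesis, all 19 measured were below 0 (median −0.43) and 1 was called. That was INSIG1, which holds the cholesterol sensor in the endoplasmic reticulum, with 8.77 and 8.52 in sh-FOXO1 cells and 9.96 and 9.89 in sh-scrambled cells (−1.28). ME1, which supplies NADPH for fatty acid synthesis, fell by 0.89, though its brightest probe set gave −0.18, and RPIA, of the pentose phosphate pathway, fell by 1.12. ELOVL4, which makes very long fatty acids, had 5.45 and 5.49 in sh-FOXO1 cells and 6.73 and 6.88 in sh-scrambled cells (−1.33). None of 29 ribosomal protein genes, 29 proteasome genes and 11 reference genes was called.

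Textbook FOXO targets were counted in 2 lists, beside the 3.45% of all genes called higher. Of 21 measured targets of growth arrest and cell death 1 rose (4.76%) and 0 fell (median 0.12): it was GADD45A, also counted above. CDKN1B, the cell-cycle inhibitor p27, had 9.81 and 9.68 in sh-FOXO1 cells and 9.93 and 9.99 in sh-scrambled cells (log2 fold change −0.22). BCL2L11, the death gene BIM, was at 0.12 and CCNG2, an arrest cyclin, at −0.08. Of 28 targets in antioxidant defence, autophagy and metabolism 5 rose (17.9%) and 0 fell (median 0.16): CXCR4, the mitochondrial peroxidase PRDX3 (1.16), the insulin receptor substrate IRS1 (0.84), TRIB1 (0.74) and the muscle ubiquitin ligase FBXO32 (0.70). CXCR4 was also counted above among the chemokines and their receptors. TRIB1 and FBXO32 lay close to the limit and were not called without sh-scrambled replicate 1 (0.68 and 0.66), FBXO32 was at 0.30 with no filter on dim probe sets, IRS1 was at 0.31 on its brightest probe set, and PRDX3 was at 0.60 as the mean of its kept probe sets. SOD2, the mitochondrial superoxide dismutase, had 7.20 and 6.83 in sh-FOXO1 cells and 6.50 and 6.50 in sh-scrambled cells (0.52) and did not pass. Of 19 forkhead genes tested, FOXC2 rose by 0.77 and FOXD1 fell by 0.72 beside FOXO1. Both lost the call without sh-scrambled replicate 2 (0.69 and −0.60). FOXC2 was also at 0.64 without sh-FOXO1 replicate 1. FOXD1 was at −0.67 without sh-FOXO1 replicate 2 and, with quantile normalization, at −0.69 and not called.

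The same silencing after EWS-FLI1 knockdown was measured on 4 other arrays, so the comparisons share no array. With doxycycline 380 genes were higher (3.08%) and 292 lower (2.37%) in sh-FOXO1 cells. Of the 425 genes higher without doxycycline 182 were also higher with it, 42.8% of the first list and 47.9% of the second. Of the 287 lower 103 were also lower with it, 35.9% and 35.3%. Across the 12326 genes the 2 sets of log2 fold changes had a Pearson correlation of 0.54 (Spearman 0.53), as a description over genes that share the probe sets and the hairpin. FOXO1 in sh-FOXO1 cells with doxycycline, at 5.76 and 5.75, was close to its level in sh-scrambled cells without it, and the difference of its fold change between the settings did not pass the test (0.50, adjusted p = 0.10, limma).

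The difference of the FOXO1 silencing effect, without minus with doxycycline, was tested in the same model. It was higher for 302 genes (2.45%) and lower for 180 (1.46%), 482 in all (3.91%). It was higher for 11 and lower for 0 of 20 chemokine genes, higher for 14 and lower for 1 of 24 NF-kB genes, and higher for 20 and lower for 0 of 35 EWS-FLI1-repressed genes. The difference is also the doxycycline response in sh-scrambled cells minus that in sh-FOXO1 cells. The EWS-FLI1-repressed list holds genes known to rise on EWS-FLI1 knockdown and was chosen with earlier results known. Its count is therefore a description and no test. For CXCL8 the log2 fold change was 3.16 without doxycycline and −0.77 with it (difference 3.92, adjusted p = 0.00035, limma). The levels with doxycycline were 10.03 and 10.32 in sh-FOXO1 cells and 10.79 and 11.10 in sh-scrambled cells, above both groups without it. CCL2 was likewise at 11.99 and 11.96 in sh-FOXO1 cells and 12.15 and 12.18 in sh-scrambled cells with doxycycline, and its fold change there was −0.19 (difference 3.19). CHI3L1, a secreted glycoprotein of inflamed tissue, had 3.41 and 3.55 in sh-FOXO1 cells and 3.46 and 3.37 in sh-scrambled cells without doxycycline. With it CHI3L1 had 4.91 and 5.06 in sh-FOXO1 cells and 8.46 and 8.52 in sh-scrambled cells (difference 3.57). CCL20, MMP10, IL6, IL1A and CXCL2 had differences of 3.53, 3.10, 2.95, 2.91 and 2.87. EPAS1, OSMR and MME differed by 1.87, 1.45 and 1.02, being called lower with doxycycline and not without. The study picked them from the genes significant in all its settings, which include FOXO1 silencing with doxycycline on the same arrays. Their fall with doxycycline therefore followed largely from that choice, and they count among the 20 EWS-FLI1-repressed genes above.

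In 13 genes both settings were called in opposite directions, and they are named for that reason, after their values were seen. Higher without and lower with doxycycline were the chemokines CXCL8, CCL20, CXCL1, CXCL2 and CXCL10, the prostaglandin synthase PTGS2, the serpin SERPINB7, the tryptophan enzyme KYNU, the lymphocyte receptor SLAMF1 and G0S2, an inhibitor of fat breakdown. PTGS2 had a log2 fold change of 0.98 without and −1.62 with doxycycline, and CXCL1 of 0.84 and −1.73. Lower without and higher with it were the surface glycoprotein CD24 (−0.83 and 1.27), lipoprotein lipase LPL (−0.78 and 0.93) and VASH2, which promotes vessel growth (−0.85 and 0.89). All 13 differences passed the test, which being called in opposite directions had made nearly certain. CD24, LPL and VASH2 were no longer called lower when sh-scrambled replicate 2 was left out (−0.66, −0.59 and −0.68). The mean of the kept probe sets of each was not called either (−0.52, −0.67 and −0.696). On their brightest probe sets CD24 and LPL were at −0.698 and −0.55 and not called. VASH2 was at −0.68 without sh-FOXO1 replicate 1. Other genes were called only with doxycycline: GUCY1A1, a subunit of the nitric oxide receptor, had 4.86 and 4.46 in sh-FOXO1 cells and 4.63 and 4.35 in sh-scrambled cells without doxycycline, and a fold change of 2.60 with it (difference −2.43).

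Genes with FOXO1 added rather than silenced could be set beside these, on arrays not shared but without replicates. With FOXO1-AAA against empty vector, 208 genes had a log2 difference above 0.7 (1.69%) and 186 below −0.7 (1.51%). Of the 287 genes lower in sh-FOXO1 cells, 8 were above 0.7 and 12 below −0.7. The 8 were FOXO1 itself, which the plasmid supplies, and COL12A1, FAM241A, FBXL4, STON1, TMEM135, TMEM65 and VGLL3, named as the whole set after their values were seen. VGLL3, a cofactor of TEAD factors, had 6.94 and 6.91 in sh-FOXO1 cells and 7.59 and 8.07 in sh-scrambled cells, and 9.02 with FOXO1-AAA and 8.29 with empty vector. Of the 425 higher genes 33 were above 0.7 and 22 below −0.7. With the CDK2-resistant mutant 213 genes were above 0.7 (1.73%) and 190 below −0.7 (1.54%), among them 26 and 40 of the higher genes, and 20 and 1 of the lower genes. CCL2 had 8.93 with the CDK2-resistant mutant, 5.55 with FOXO1-AAA and 6.83 with empty vector. MMP10 had 10.41 with FOXO1-AAA, 6.76 with the CDK2-resistant mutant and 6.71 with empty vector, so it stood higher both with FOXO1 silenced and with FOXO1-AAA added.

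How far a call rests on 1 probe set was counted over all called genes. Of the 425 higher genes 258 had another kept probe set. All others had the same sign in 189 and at least 1 was past the same limit in 100. Of the 287 lower genes 199 had another, with the same sign in 140 and past the limit in 63. Another probe set was past the limit in the opposite direction for CEP20, TTC17 and ATP2C1, named after their values were seen. Replicate arrays correlated at 0.995 in sh-FOXO1 cells and 0.992 in sh-scrambled cells over the kept probe sets, and the sh-scrambled pair had the widest differences of the 4 shRNA groups (SD 0.218 over probe sets). The actin control probe sets differed between 3′ and 5′ end by 0.87 and 1.04 on the sh-FOXO1 arrays and 0.76 and 1.05 on the sh-scrambled arrays, more by replicate number than by group.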

How the data were processed

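The deposited values, 1 log2 level per probe set and array, were made by the authors from Affymetrix HG-U133 Plus 2 files in R with Bioconductor packages. The summarisation and background methods are not given in the sources used here, and the log base was taken from the range of the values. Array signal has no read depth, so the number of arrays limits the precision. Of 54675 probe sets 41097 had 1 gene symbol. Probe sets under the 60th percentile on every array were dropped, and of the rest the one with the largest interquartile range stood for its gene (12326 genes). The study's own fixed probe set filter was not used. All 11 arrays in 7 groups were fitted with limma 3.58.1 (R 4.3.3) and moderated statistics, with no replicate block and with 4 residual degrees of freedom. P-values were adjusted by Benjamini-Hochberg over all genes, and a call needed a value under 0.05 with a difference above 0.7 (log2) either way. Scripts were tested on simulated data. Named genes were those the study names, the 15 highest and lowest, up to 6 called members and 3 defining members per list, and the 8 largest differences each way, unless said otherwise. The members and gene lists were chosen with earlier results of these data known. Other probe set choices, filters, normalizations, limits, a mean-variance trend, a replicate block and leaving out each array were tried.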

Additional observations from a re-analysis of the deposited data

Results flagged for a closer look

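The effect of FOXO1 silencing on the log2 scale differed between cells without and with doxycycline by the interaction test of limma (no doxycycline minus doxycycline). It was higher without doxycycline for 302 genes and lower for 180. Among the genes described above, the difference was largest, above 2, for CXCL8 (3.92), CHI3L1 (3.57), CCL20 (3.53), CCL2 (3.19), MMP10 (3.10), IL6 (2.95), IL1A (2.91), CXCL2 (2.87), IL1B (2.67), PTGS2 (2.60), CXCL1 (2.56), TDO2 (2.51), PDE4B (2.46), GDF15 (2.29), SERPINB7 (2.29), NFKBIZ (2.21), TNC (2.20), ICAM1 (2.18), TNFAIP3 (2.11), ADM (2.07), TNFSF15 (2.01) and SLAMF1 (2.01). It lay between 1 and 2 for FOS (1.99), FBLN5 (1.88), KYNU (1.88), EPAS1 (1.87), COL6A3 (1.85), EGR4 (1.83), FOSL2 (1.78), CXCL10 (1.77), NFKB2 (1.77), IL1R1 (1.66), G0S2 (1.63), LIF (1.60), EGR3 (1.58), OSMR (1.45), IER3 (1.44), TGFBI (1.41), NFKBIA (1.36), SOD2 (1.30), FN1 (1.30), SOCS1 (1.18), COL1A2 (1.12), IGFBP5 (1.12), IGFBP3 (1.09), CXCL14 (1.05), MME (1.02) and MAFF (1.01). It was below 1 for H2AC6 (0.99), H2BC5 (0.95), PLAU (0.91), LIPI (0.87), SPRY2 (0.86), TAC1 (0.83), IL6R (0.79), IFITM1 (0.78), FBXO32 (0.77), DUSP6 (0.74), LOX (0.74), SSH2 (0.73), COL7A1 (0.72) and SCGB3A2 (0.71). The difference was negative for GUCY1A1 (−2.43), CD24 (−2.10), VASH2 (−1.74), LPL (−1.71), NTS (−0.98), BRIP1 (−0.94), VGLL3 (−0.88), PAX6 (−0.85) and ATL1 (−0.76). The 4 arrays without doxycycline enter both this difference and the effect without doxycycline. No group has 4 or more arrays, so no single array was tested as far from its group.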

How the results depend on the processing

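The count of genes higher without doxycycline was 202 with a log2 limit of 1 and 1926 with none, and that of genes lower was 70 and 1808. For the difference the higher counts were 144 and 559 and the lower counts 55 and 389. The count of lower genes was 188 with the brightest probe set per gene (165 of the 287 among them) and 150 with the mean of all kept probe sets (139 of them), an alternative chosen after seeing the data. Leaving out 1 array gave 374 to 528 higher and 226 to 449 lower genes, and 269 to 347 higher and 132 to 300 lower differences. The counts of 449 and 300 came without sh-scrambled replicate 1. With the brightest probe set RECK was at 0.0039, SUGT1 at 0.185, NFRKB at −0.038 and MRTFA at −0.128, as was MRTFA with the filter at the 75th percentile. The cause was not tested. With a replicate block, the fit of the 8 shRNA arrays called 426 higher and 292 lower genes, among them all 425 and 287, and EGR1 passed (adjusted p = 0.00019, limma). Same-numbered arrays deviated together (correlations of 0.44 to 0.62), but the labels give no shared source and there are only 2 numbers, so the block was not used. FOXO1 stayed lower in each fit, by −1.03 to −0.86 when 1 array was left out. The difference could not be fitted on the 4 arrays without doxycycline alone. FOXO1 lay near the dim end of the scale, at 5.81 to 5.86 in the control cells. When 1 array was left out, the lone array of its group was assumed to vary like the other groups.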
